A study of Mus musculus with 6 samples.

Results

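The potassium channel genes of the mouse are the 92 gene IDs, of 48709 listed in the deposited counts, whose symbol is Kcn followed by a letter code and a number. Antisense genes and pseudogenes do not match that form, and none of the 92 was chosen for a measured value. By the family letters, 40 encode voltage-gated pore subunits or their silent partners (Kcna to Kcnd, Kcnf to Kcnh, Kcnq, Kcns, Kcnv) and 11 encode auxiliary subunits (Kcnab, Kcnip, Kcne). A further 12 belong to the families of channels gated by intracellular calcium or sodium (Kcnma, Kcnmb, Kcnn, Kcnt), with Kcnu1 counted among them as a relative of Kcnma1 that is gated by voltage and pH. The set is completed by 15 inward rectifiers (Kcnj) and 14 tandem-pore leak channels (Kcnk).

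Gene expression was measured by RNA-seq in dissected neocortex of C57BL/6 mouse embryos at embryonic day E15.5. The WT group held 3 wild-type embryos. The Rest_het group held 3 embryos with the genotype Rest(+/deltaExon4), in which 1 Rest allele lacks exon 4 and the other is intact. The titles call these libraries KO, the labels give neither sex nor litter, and replicates are separate mice. Transgene reads also separated the groups, LacZ being present in WT and absent from Rest_het and Cre-ERT2 the reverse, so a difference between genotypes cannot be told apart from other differences of these animals. Gene reads numbered 19996943 to 20753653 per WT library and 17835117 to 18426652 per Rest_het library. Rest itself had 440, 374 and 410 reads in WT and 309, 343 and 350 in Rest_het, with an edgeR adjusted p of 0.49, and this total over all exons does not check the deletion. All 7 neocortex markers examined, among them Emx1 and Tbr1, were detected.

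Potassium channels let potassium leave the cell and so set the resting potential, end action potentials and space successive spikes. Tandem-pore and inward rectifier channels hold the membrane near rest, voltage-gated channels open on depolarization, and calcium- or sodium-activated channels respond to ions that enter during firing. REST is a repressor that binds the RE1 element in many neuronal genes, ion channel genes among them, in progenitors and non-neuronal cells, and the comparison asked which of these channel transcripts differed when 1 Rest allele lacked exon 4.

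The embryonic neocortex held few channel transcripts, and a handful of genes carried much of the signal. The 92 genes together took 5392 to 6577 reads per library, between 0.0285 and 0.0319% of all gene reads. Levels are compared between genes as RPKM, the reads of a gene scaled to the length of its merged exons and to the TMM-scaled gene reads of its library. By the mean of the 6 libraries, 59 genes reached 0.1 RPKM, 16 reached 1, 5 reached 2 and 1 reached 5. Those 5 genes, Kcnk2, Kcnip3, Kcnj8, Kcnk10 and Kcnv1, made up 35.2 to 39.2% of the summed RPKM of the set. At the other end, 7 genes (Kcna7, Kcna10, Kcng4, Kcnj1, Kcnk15, Kcnk16 and Kcnk18) had no read in any library. A total of 23 genes, these 7 included, had 0 reads in at least 1 library, where counting error alone allows 3 reads, or 0.143 to 0.166 CPM.

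The highest level belonged to Kcnk2, a mechanosensitive and lipid-sensitive tandem-pore channel of the TREK group, at 5.53 ± 0.417 RPKM (SD over the 6 libraries of both groups). Kcnip3, a calcium sensor that binds Kv4 channels and is also known as the transcriptional repressor DREAM, followed at 4.40 ± 0.208 RPKM. Kcnk10, another TREK channel, stood at 3.61 ± 0.301 RPKM. Kcnj8, the pore of ATP-sensitive channels in vascular mural cells, stood at 3.61 ± 0.921 RPKM, and the spread of Kcnj8 spanned the level of Kcnk10. Kcnv1, a silent subunit that opens no channel alone and modifies Kv2 partners, stood at 2.99 ± 0.233 RPKM. Kcnb2, a Kv2 pore gene, lay lower, at 0.157 RPKM. With the longest transcript as the length, Kcnk2 came to 7.65, Kcnip3 to 5.71 and Kcnk10 to 4.24 RPKM, Kcnk10 passed Kcnj8, and 18 genes reached 1 RPKM.

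**Figure D1:**
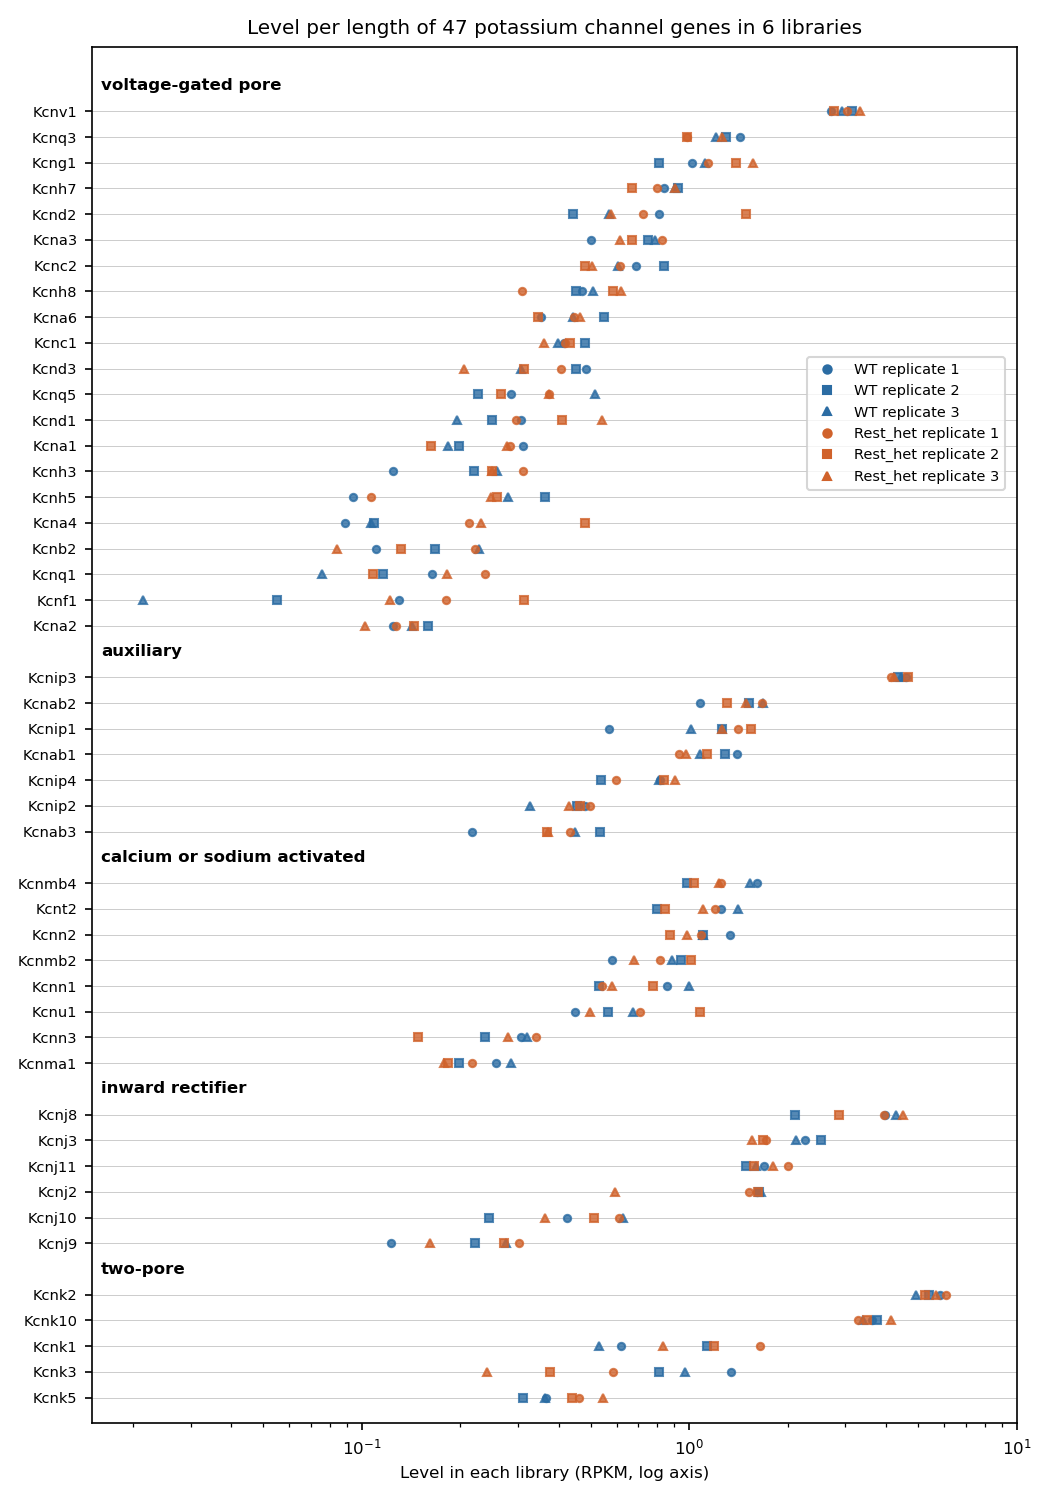
Level of 47 of the 51 tested potassium channel genes in each library, as RPKM on a log axis, sorted by mean within the 5 roles; blue marks are WT and orange marks Rest_het libraries, with 1 shape per replicate number. Kcnk2, Kcnip3, Kcnk10, Kcnv1 and Kcnj8 stand at the right, while Kcnf1, Kcnd2 and Kcnj2 show single libraries away from the rest.

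The genotypes were compared with edgeR's quasi-likelihood test across all genes, and no potassium channel gene passed it. Of the 92 genes, 51 passed edgeR's filter on low counts and were tested, and 41 did not pass it. None of the 51 had an adjusted p under 0.05, against 19 of 15385 genes tested, or 0.123%, and the smallest adjusted p of the set was 0.32. limma-voom likewise called 0 of the set. DESeq2 called 1 of the 60 to which it gave an adjusted p, Kcnk3, where it called 0.822% of all genes with an adjusted p. At an unadjusted edgeR p under 0.05 stood 6 of the 51, or 11.8%, against 11.7% of all genes tested. Of the 51, 26 had a log2 fold change above 0 and 25 below, with a median of 0.02 where the median of all genes tested was 0.01. The tested channel genes had a median SE of 0.28 on the log2 scale, against 0.17 for all genes tested, so a change of a given size was harder to detect in this set. In bulk tissue, fewer cells of a type and less RNA per cell cannot be told apart.

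Among the 6 genes at an unadjusted p under 0.05, 3 were lower in Rest_het, Kcnk3 and Kcnj3 among them, where 4.72% of all genes tested were lower at that p. The 3 higher ones were Kcna4, Kcnf1 and Kcng1, against 6.98% of all genes. Counted instead by groups that did not overlap, 4 tested genes were lower in every Rest_het library than in any WT library (Kcnk3, Kcnj3 and Kcnn2 among them), where the share among all genes tested was 8.94%. Another 4 were higher in every Rest_het library (Kcna4, Kcng1, Kcnip1 and Kcnk5), against 10.4% of all genes. These counts stood near the shares of all genes.

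Kcnk3, an acid-sensitive tandem-pore leak channel of the TASK group, had the smallest p of the set. On chromosome 5 (GRCm38, 30588170 to 30625271), it had 112, 61 and 75 reads in the 3 WT libraries and 43, 27 and 18 in the 3 Rest_het libraries. As CPM, counts scaled to the TMM-scaled library size without regard to gene length, these were 5.35, 3.22 and 3.86 against 2.32, 1.5 and 0.956, and the lowest WT library lay above the highest Rest_het library. The mean was 4.14 ± 1.10 CPM in WT and 1.59 ± 0.689 CPM in Rest_het (SD, n = 3 each). The log2 fold change was -1.38 with SE 0.35, a fold of 0.384 with an interval of 1.96 SE from 0.238 to 0.620. The edgeR adjusted p was 0.32 and that of DESeq2 0.044. Leaving out single libraries moved the log2 value between -1.76 and -1.11. The other 4 tested Kcnk genes had log2 fold changes between 0.02 and 0.68.

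Kcna4, a fast-inactivating A-type channel of axons, had the largest fold change of the set and few reads. Its reads numbered 9, 10 and 10 in WT and 19, 42 and 21 in Rest_het, on chromosome 2 from 107290639 to 107298502. The CPM values were 0.430, 0.527 and 0.515 in WT and 1.03, 2.33 and 1.12 in Rest_het. The groups did not overlap, and Rest_het replicate 2 stood well above the other 2 libraries of its group. The log2 fold change was 1.59 with SE 0.42, or 3.01-fold with an interval from 1.70 to 5.34, and the edgeR adjusted p was 0.33. Without Rest_het replicate 2 the log2 value was 1.12.

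Kcnj3, a subunit of the G-protein-gated inward rectifiers, was the most precisely measured of the 6. It lies on chromosome 2 from 55435970 to 55598145 and had 247, 249 and 215 reads in WT and 166, 158 and 153 in Rest_het. The CPM values were 11.8, 13.1 and 11.1 in WT and 8.97, 8.76 and 8.13 in Rest_het, with no overlap. The means were 12.0 ± 1.04 and 8.62 ± 0.439 CPM (SD, n = 3 each), and the log2 fold change was -0.48 (SE 0.13, edgeR adjusted p 0.33). A predicted gene on the opposite strand, Gm26794, covers 31.1% of the exon bases of Kcnj3. The counts carry no strand, and reads ambiguous between genes stayed out of them. The usual partner subunits were scarce: Kcnj9 stood at 0.226 RPKM, Kcnj5 at 0.0928 RPKM and Kcnj6 at 0.00602 RPKM against 1.98 RPKM for Kcnj3. Kcnj6 had 5 reads in all 6 libraries together.

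The Kcnc family encodes rapidly closing channels that serve fast-spiking neurons. Its member Kcnc2 measured 4.92, 5.96 and 4.33 CPM in WT and 4.38, 3.44 and 3.61 CPM in Rest_het. The groups overlapped by a narrow margin, and the log2 fold change was -0.41 (SE 0.20, edgeR adjusted p 0.46). Kcnc1 had a log2 fold change of -0.09.

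Other voltage-gated genes with low p were the silent subunits Kcnf1 and Kcng1, which assemble with Kv2 channels, and the A-type channel Kcnd1. Kcnf1 had 13, 5 and 2 reads in WT and 16, 27 and 11 in Rest_het, and its groups overlapped. The log2 fold change of Kcnf1 was 1.53 (SE 0.62, edgeR adjusted p 0.41), and it ran from 1.11 to 2.38 when single libraries were left out. Kcng1 measured 4.59, 3.64 and 5.05 CPM in WT and 5.13, 6.26 and 7.06 CPM in Rest_het, groups that lay apart by a narrow margin, with a log2 fold change of 0.47 (SE 0.20, edgeR adjusted p 0.42). Kcnd1 measured 1.62, 1.32 and 1.03 CPM against 1.57, 2.16 and 2.87 CPM, with overlap, and a log2 fold change of 0.73 (SE 0.32, edgeR adjusted p 0.43). The Kv2 gene Kcnb2 had a log2 fold change of -0.21.

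**Figure D2:**
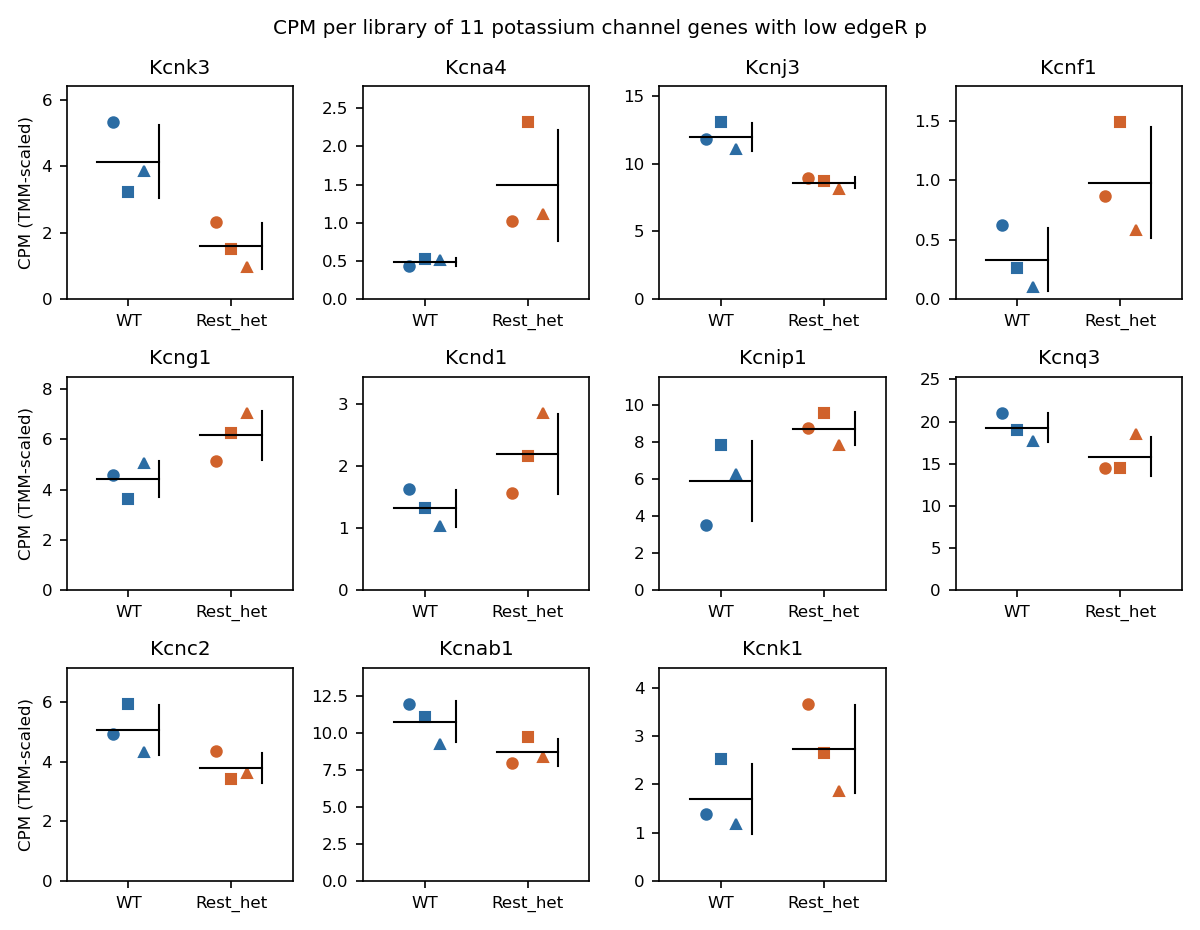
CPM in each library of 11 of the 12 potassium channel genes with the smallest edgeR p; points are libraries, horizontal lines group means and vertical lines 1 SD on each side (n = 3). The WT and Rest_het points of Kcnk3, Kcna4, Kcnj3, Kcng1 and Kcnip1 do not overlap, with the closest approach in Kcnip1.

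Kcnq3 encodes a subunit of the M current, which damps repetitive firing. It measured 21.1, 19.0 and 17.7 CPM in WT and 14.5, 14.5 and 18.5 CPM in Rest_het. Rest_het replicate 3 lay inside the WT range, and the log2 fold change was -0.28 (SE 0.14, edgeR adjusted p 0.45). Per length of merged exons Kcnq3 stood at 1.19 RPKM and per length of the longest transcript at 1.49 RPKM. Kcnh5, an ether-a-go-go channel, varied widely within groups, at 0.382, 1.48 and 1.13 CPM in WT and 0.432, 1.05 and 1.01 CPM in Rest_het. Its log2 fold change was -0.25 with SE 0.54 (edgeR adjusted p 0.88), and it turned to 0.14 without WT replicate 2.

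Kcnv1, the voltage-gated family gene with the highest level, had 12.5, 14.4 and 13.4 CPM in WT and 13.9, 12.7 and 15.3 CPM in Rest_het. The fold was 1.04 with an interval from 0.881 to 1.23 (edgeR adjusted p 0.88). Kcnk2 measured 28.8, 26.7 and 24.4 CPM in WT and 30.1, 25.9 and 27.9 CPM in Rest_het, a fold of 1.05 with an interval from 0.911 to 1.21. The values of Kcnk10 were 31.8, 32.8 and 29.8 CPM against 28.7, 30.6 and 36.2 CPM, a fold of 1.01 with an interval from 0.874 to 1.17. The groups of these well-covered genes overlapped, and their intervals leave room for a change of some size in either direction. Kcnk1, a weakly conducting tandem-pore channel, was less certain, with 1.39, 2.53 and 1.18 CPM in WT and 3.68, 2.66 and 1.86 CPM in Rest_het. Its groups overlapped, and its log2 fold change was 0.68 (SE 0.38, edgeR adjusted p 0.50).

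Auxiliary subunits steer the trafficking and inactivation of pore subunits. Kcnip1, a calcium sensor of Kv4 channels, measured 3.54, 7.81 and 6.28 CPM in WT and 8.76, 9.59 and 7.81 CPM in Rest_het. The highest WT and the lowest Rest_het values touched at this rounding, and the log2 fold change was 0.57 (SE 0.27, edgeR adjusted p 0.45). Kcnip3 measured 16.3, 15.4 and 15.8 CPM in WT and 14.7, 16.5 and 14.9 CPM in Rest_het, with a fold of 0.971 and an interval from 0.841 to 1.12. Of the beta subunits of Kv1 channels, Kcnab1 had a log2 fold change of -0.31 (SE 0.15, edgeR adjusted p 0.46) and Kcnab2 one of 0.06 (SE 0.20, edgeR adjusted p 0.93). The 4 Kcne genes did not pass edgeR's filter on low counts, and DESeq2 gave an adjusted p to 2 of them, neither under 0.05.

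Among the genes of the calcium- and sodium-activated families, Kcnu1 included, 6 of the 8 tested had log2 fold changes below 0, with a median of -0.20, and none had an unadjusted edgeR p under 0.05. Kcnn2, a small-conductance channel that follows spikes with a hyperpolarization, measured 9.94, 8.23 and 8.24 CPM in WT and 8.11, 6.54 and 7.33 CPM in Rest_het. The groups lay just apart, and the log2 fold change was -0.27 (SE 0.16, edgeR adjusted p 0.52). Kcnt2, a sodium-activated channel, measured 8.60, 5.49 and 9.73 CPM in WT and 8.27, 5.82 and 7.60 CPM in Rest_het, with full overlap and a log2 fold change of -0.14 (SE 0.24, edgeR adjusted p 0.85). Kcnmb4, the neuronal beta subunit of the large-conductance BK channel, stood at 1.27 RPKM, above the BK pore gene Kcnma1 at 0.220 RPKM. Genes annotated as Kcnmb4os1 and Kcnmb4os2 overlap 31.5% of the exon bases of Kcnmb4, and its log2 fold change was -0.23 (SE 0.23, edgeR adjusted p 0.72). Kcnu1, known from sperm, had 35, 40 and 49 reads in WT and 49, 73 and 35 in Rest_het.

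**Figure D3:**
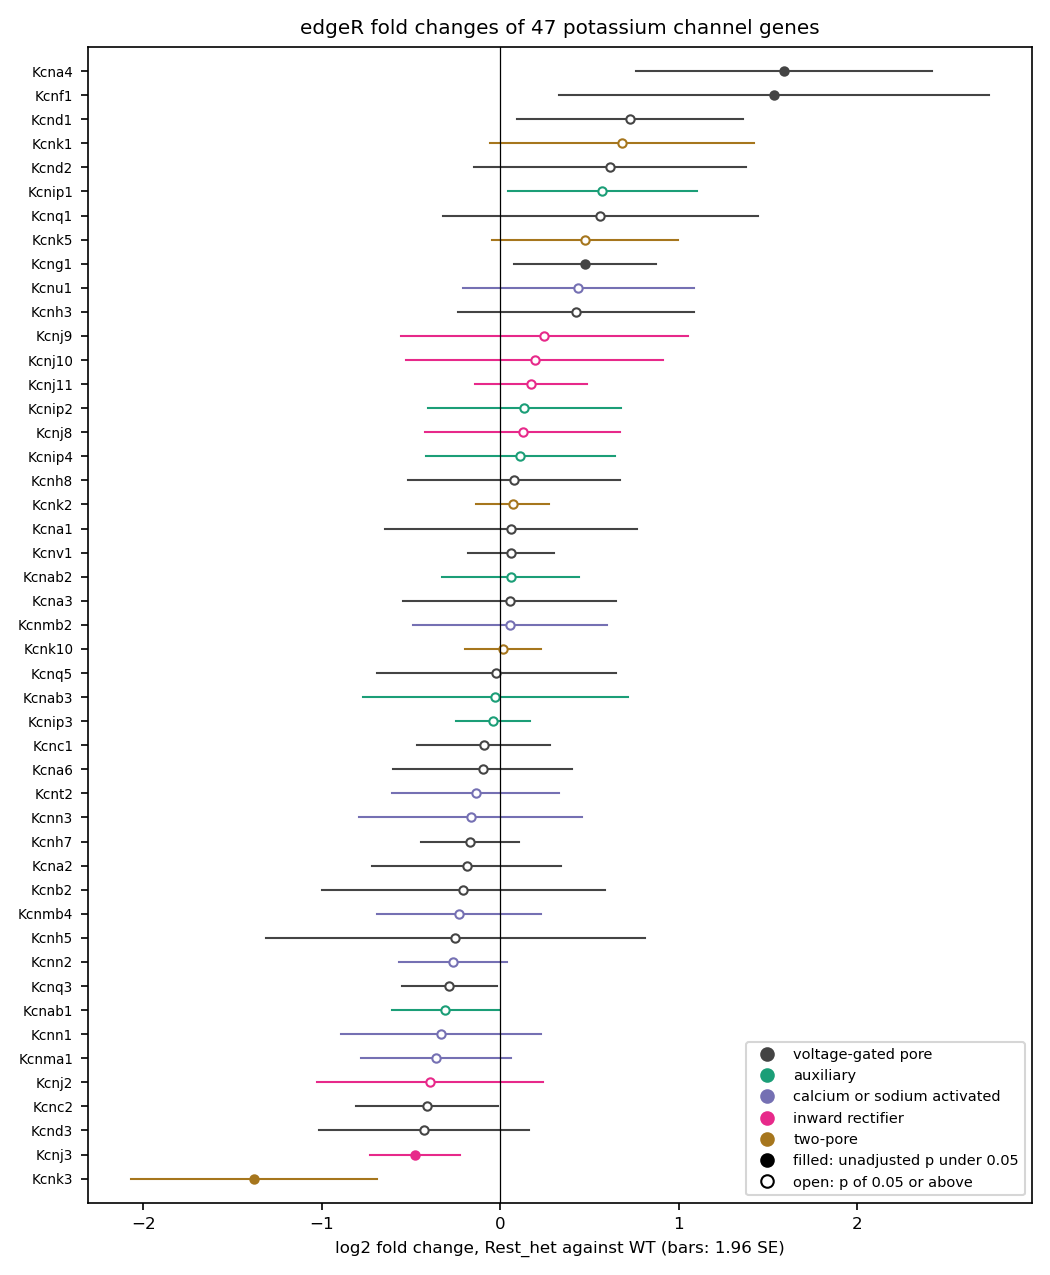
Log2 fold change of Rest_het against WT for 47 of the 51 tested potassium channel genes, sorted by value and coloured by role, with bars of 1.96 SE; filled points have an unadjusted edgeR p under 0.05. The points spread on both sides of 0, from -1.38 for Kcnk3 to 1.59 for Kcna4, and 5 are filled.

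Summed over each role, the levels of the groups overlapped in 4 roles. The voltage-gated genes summed to 14.96, 15.49 and 15.44 RPKM in WT and 15.38, 16.52 and 16.04 RPKM in Rest_het. The tandem-pore genes summed to between 10.4 and 11.9 RPKM in WT and between 11.3 and 12.4 RPKM in Rest_het. The inward rectifiers, with 8.69 to 10.9 RPKM in WT and 9.29 to 10.7 RPKM in Rest_het, varied most with Kcnj8 and Kcnj2. The calcium- and sodium-activated genes ranged from 5.68 to 7.62 RPKM in WT and from 5.85 to 6.72 RPKM in Rest_het. The auxiliary genes stood at 9.94 to 10.39 RPKM in WT and 10.47 to 12.01 RPKM in Rest_het, apart by a narrow margin. The 4 Kcne genes, untested by edgeR, gave 0.767, 0.446 and 0.203 RPKM of these sums in WT. In Rest_het they gave 0.784, 0.312 and 2.37 RPKM, the last in the highest sum. Of the other auxiliary families, the Kcnab sums overlapped between groups and the Kcnip sums lay just apart.

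**Figure D4:**
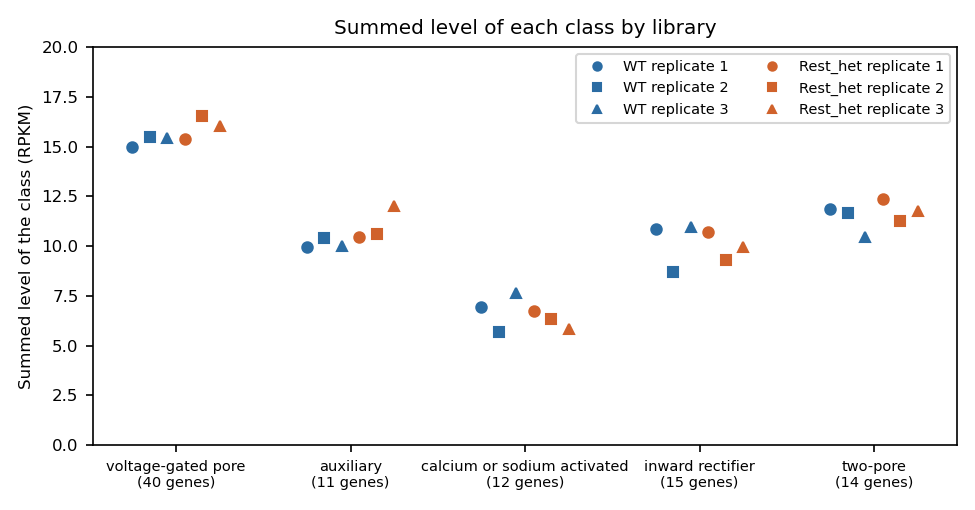
Summed RPKM of the potassium channel genes of each role in each library, with an axis from 0; blue marks are WT and orange marks Rest_het libraries. The sums of the groups overlap for every role but the auxiliary subunits, where Rest_het replicate 3 stands highest at 12.01 RPKM.

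Several channel genes differed between single libraries of a group, and markers of other cell types varied beside them. Kcne2, an auxiliary subunit of the choroid plexus epithelium, had 9, 0 and 1 reads in WT and 21, 1 and 61 in Rest_het. Ttr, the transthyretin gene and the leading choroid plexus marker, measured 53.0, 2.27 and 3.09 CPM in WT and 169, 5.49 and 357 CPM in Rest_het, high in the same 3 libraries. All 8 choroid plexus markers were detected and 6 were tested. The sum of the 8, mostly Ttr, ranged from 3.90 to 59.6 CPM in WT and from 9.37 to 378 CPM in Rest_het. The 6 tested markers all had log2 fold changes above 0, with a median of 1.84, where all genes tested had 0.01. Of these 6, 3 were higher at an unadjusted edgeR p under 0.05, against 6.98% of all genes tested. Only 1 was higher in every Rest_het library, against 10.4% of all genes, and neither edgeR nor DESeq2 called any. Kcnj13, an inward rectifier of the same epithelium, had 12, 6 and 5 reads in WT and 6, 6 and 18 in Rest_het, and Gigyf2 overlaps 49.1% of its exon bases. The part of choroid plexus tissue in these values was not tested.

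Kcnj8 measured 10.1, 5.38 and 10.9 CPM in WT and 10.1, 7.31 and 11.4 CPM in Rest_het, lowest in replicate 2 of each group. Its log2 fold change was 0.13 with SE 0.28 (edgeR adjusted p 0.89), and it turned to -0.13 without WT replicate 2. Pdgfrb, a receptor of pericytes, was likewise lowest in replicate 2 of each group, at 4.17 and 6.37 CPM, and ranged from 6.75 to 9.56 CPM in the other 4 libraries. Cldn5, a tight junction gene of endothelium, ranged from 23.1 to 45.5 CPM in WT and from 38.0 to 52.2 CPM in Rest_het. All 8 vessel markers were detected, with sums of 209 to 321 CPM in WT and 306 to 1532 CPM in Rest_het. Most of the 2 highest sums was Rgs5, at 1432 and 1161 CPM in Rest_het replicates 1 and 2. Unlike Kcnj8 and Pdgfrb, Rgs5 was lowest within Rest_het in replicate 3, at 196 CPM, while within WT it was lowest in replicate 2, at 152 CPM. The other vessel markers were lowest in replicate 2 of each group, Cspg4 in Rest_het by a narrow margin. The part of vessel cells in the level of Kcnj8 was not tested. The sulfonylurea receptor genes that complete ATP-sensitive channels stood at 0.452 RPKM for Abcc9, the usual partner of Kcnj8, and 1.67 RPKM for Abcc8, the usual partner of Kcnj11. Kcnj11 stood at 1.69 RPKM, with a log2 fold change of 0.17 (SE 0.16, edgeR adjusted p 0.69).

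Kcnd2, an A-type channel of dendrites, measured 4.16, 2.27 and 2.94 CPM in WT and 3.73, 7.70 and 2.97 CPM in Rest_het, highest in Rest_het replicate 2. All 9 ventral telencephalon markers were detected, and their sum was 353 CPM in that library, against 177 to 246 CPM in WT and 197 and 211 CPM in the other Rest_het libraries. Dlx5, a homeobox gene of ventral telencephalic neurons, measured 49.5 CPM there and 23.1 to 36.5 CPM in the rest. Kcnj2, a strong inward rectifier, went the other way, at 8.75, 8.91 and 9.01 CPM in WT and 8.27, 8.81 and 3.24 CPM in Rest_het. Rest_het replicate 3, with 61 reads of Kcnj2 against 153 to 183 in the others, stood alone. Kcna4 and Kcnf1 were also highest in Rest_het replicate 2, at 2.33 and 1.5 CPM. Of the 6 thalamus markers, Barhl2 and Lhx9 peaked in that library, Barhl2 at 10.9 CPM against 1.11 to 4.09 CPM elsewhere and Lhx9 at 14.4 CPM against 4.17 to 10.9 CPM. Gbx2 was at 0 in every WT library and had 5, 1 and 0 reads in Rest_het. The sum of the thalamus list, mostly Tcf7l2, was lowest in Rest_het replicate 2, at 162 CPM against 174 to 273 CPM. DESeq2 called Barhl2 higher in Rest_het with an adjusted p of 0.027, and edgeR called none of the list. The part of tissue composition in the values of Kcnd2, Kcnj2, Kcna4 and Kcnf1 was not tested.

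**Figure D5:**
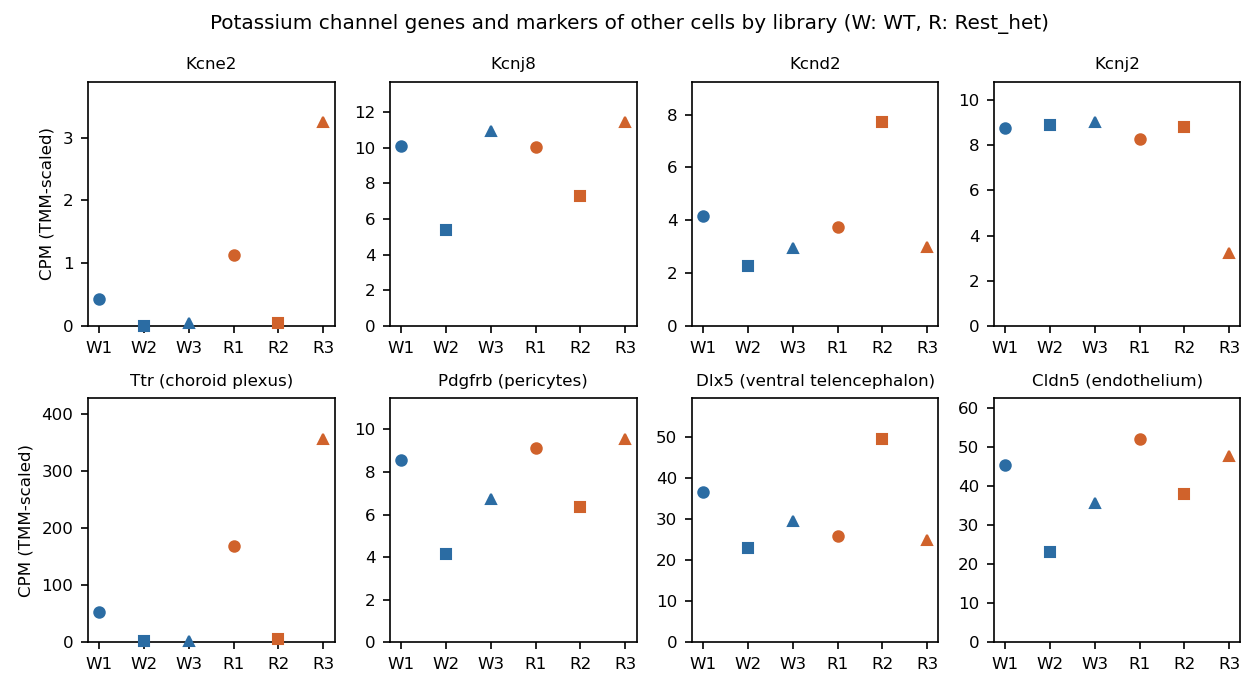
CPM per library (W1 to W3 are WT, R1 to R3 Rest_het) of 4 potassium channel genes, above, and of 4 markers of other cells, below. Kcne2 and Ttr are highest in Rest_het replicate 3, Kcnj8 and Pdgfrb are low in replicate 2 of each group, Kcnd2 and Dlx5 peak in Rest_het replicate 2, and Kcnj2 is low in Rest_het replicate 3 alone.

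Pan-neuronal markers also bear on genes expressed by neurons. The sum of 8 such markers, all detected, was 3328, 3255 and 3149 CPM in WT and 2836, 2781 and 2587 CPM in Rest_het, so that the groups did not overlap. Tubb3, Map2 and Stmn2 made up most of this sum. None of the 8 passed the edgeR test, and 4 were lower at an unadjusted edgeR p under 0.05, against 4.72% of all genes tested. DESeq2 called 2, against 0.822% of all genes. Of the 8, 6 had log2 fold changes below 0, Neurod2 among them at -0.0006. The other 2 lay above 0, Rbfox3 at 0.13 and Syt1 at 0.11. Kcnj3, Kcnk3 and Kcnn2 were lower in the same 3 libraries, and the part of the neuronal share in their values was not tested.

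Genes that work with potassium channels were counted in 4 lists of 35 genes in all. Of the 29 tested, 15 had log2 fold changes above 0 and 14 below, 7 were higher and 1 lower at an unadjusted edgeR p under 0.05, none passed the edgeR test, and DESeq2 called 1. Among all genes tested, 6.98% were higher and 4.72% lower at that p, and DESeq2 called 0.822%. In the list of auxiliary and regulatory proteins outside the Kcn symbols, 6 of 9 tested lay below 0 with a median of -0.24, and none had an unadjusted edgeR p under 0.05. In the list of axonal and synaptic anchors, 3 of 8 tested lay above 0 with a median of -0.01, and 1 was higher at that p. Both tested HCN channel genes, which encode hyperpolarization-activated pacemaker channels, lay above 0, neither at that p. Potassium pumps and cotransporters, which build the potassium gradient that the channels use, had 7 of 10 genes above 0 with a median of 0.35, where all genes tested had 0.01. Of these 10, 6 were higher and 1 lower at that p, against the 6.98% and 4.72% of all genes tested. Atp1b2, a beta subunit of the sodium-potassium pump and chosen here after its values were seen, measured 18.0, 22.9 and 23.8 CPM in WT and 33.3, 31.6 and 29.8 CPM in Rest_het. Its log2 fold change was 0.55 with SE 0.12, with an adjusted p of 0.32 by edgeR and 0.048 by DESeq2.

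Because REST reads the RE1 element, the promoters of the channel genes were searched for it. The motif searched was TTCAGCACC on the left, any 2 bases, and GGACAGCGC on the right, on both strands, within 250 bases before and 50 after each annotated start (RefSeq sequences, GRCm38.p6). Promoters were matched for 67 of the 92 genes, Kcnk3 and Kcng1 not among them. These 67 genes had 92 promoters, a number that equals the gene count of the set by coincidence. With at most 4 mismatches over the 18 letters, 1 of these 92 promoters held a match, or 1.09%, against 0.481% of 32851 promoters of all genes. With at most 5 mismatches these were 7 of 92, or 7.61%, against 3.56%, and with at most 3 mismatches 0 against 0.113%. The median GC content was 58.0% in the channel promoters and 52.7% in all, and the motif is itself rich in GC. The part of GC content in the shares of matches was not tested. The matches of Kcnj4, Kcnj6 and Kcnn4, genes that did not pass edgeR's filter on low counts, have 5 mismatches each and are not shown. Shown are the best match of the set, the closest stretch of the promoters of Kcna4, Kcnf1 and Kcnj3, which had low p values, and the matches of Kcnc1 and Kcnip3, 5′ to 3′ on the strand of the match, with capitals for bases equal to the motif.
Kcna3: TgCAGCcCCgcGGgCcGCGC
Kcna4: TcCAGgACCgaccACAGCaC
Kcnc1: TTtAGgACCcaGcgCgGCGC
Kcnip3: aTgAGaACCagGGACAGacC
Kcnf1: caCAcCACCaccagCAGgGC
Kcnj3: TTgAGCAgCggGGgaAGgca

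The stretch of Kcna3, a lymphocyte and neuronal Kv1 channel, has 4 mismatches and lies at chr3:107036144-107036163 on the plus strand. Its far end lies 18 bases before the start, so that its 20 bases run across the start. That of Kcna4 has 5 mismatches at chr2:107290349-107290368 on the minus strand, with its far end 240 bases before the start. Kcnc1 has 5 at chr7:46396415-46396434 on the plus strand and Kcnip3 has 5 at chr2:127521586-127521605 on the minus strand. Kcnf1 has 7 at chr12:17176939-17176958 on the minus strand and Kcnj3 has 7 at chr2:55435858-55435877 on the plus strand. A match describes letters in this window and is not a binding site, and RE1 elements elsewhere in these genes were not searched. Of these 6 genes, Kcna4 lay higher in every Rest_het library, Kcnj3 lay lower, and Kcnf1, Kcna3, Kcnc1 and Kcnip3 overlapped between groups, with log2 fold changes of 1.53, 0.05, -0.09 and -0.04.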

How the data were processed

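Per the labels' protocols, RNA was primed with oligo dT, template-switched, amplified and tagmented, which marks neither strand nor molecule. The deposited files hold whole read counts per gene; the submitters' processing notes name STAR 2.5.2a and GRCm38.p4. Analysis used the unstranded column. Rows naming no gene stayed out: unmapped (1.21 to 1.45% of read pairs), multimapping (6.29 to 7.48%), outside genes (21.4 to 26.9%) and ambiguous between genes (2.54 to 2.85%). A table of normalized values was not used here.

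Symbols and exon lengths came from GENCODE M21 (48349 of 48709 IDs matched). The test was that of edgeR 4.0.16 under R 4.3.3, with TMM scaling, filterByExpr (minimum count 10, total 15), the quasi-likelihood test of genotype over 6 libraries and Benjamini-Hochberg adjustment over all genes, called under 0.05. SE is the log2 fold change over the root of F. The pipeline was tested on simulated data. Alternatives were DESeq2 1.42.0, limma 3.58.1 (voom), other scalings and filters, an adjusted p under 0.10, a replicate block, no sex chromosomes, each library left out, and longest-transcript lengths. Same-numbered libraries correlated at 0.011, 0.037 and -0.144, so the numbers were not taken as pairs. Libraries of a group differed beyond sampling noise. The p-values weigh the difference between groups against the spread between separate mice. The labels name no litter, so the part of litter in that spread cannot be told. Counting intervals and floors cover counting error only.

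Full statistics are given for called genes, the 12 with the smallest edgeR p, the 3 highest per role by RPKM, and the 5 with the widest CPM range. Values of some members are not reported here. Members and lists were chosen with earlier results of these data known. Figures used matplotlib 3.10.9 under Python 3.11.15.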

Additional observations from a re-analysis of the deposited data

Results flagged for a closer look

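Reads of a pair of transgene sequences, which belong to no gene test, separated the groups. LacZ had 121 reads over the 3 WT libraries (27, 51 and 43) and 0 in each Rest_het library. Cre-ERT2 had 43 reads over the 3 Rest_het libraries (10, 16 and 17) and 0 in each WT library. The labels do not mention either sequence, and these reads touch every genotype difference given for a potassium channel gene.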

How the results depend on the processing

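The count of 0 potassium channel genes called held under every alternative but DESeq2, which called 1, Kcnk3. At an unadjusted p under 0.05 the 6 of 51 channel genes tested became 12 of 85 with no filter on low counts. The share of all genes at that p without the filter was not computed. Under the other alternatives 5 to 7 channel genes stood at that p. Over all genes, the 19 calls became 131 with DESeq2 and 107 with no filter, and ran from 12 (without WT replicate 1) to 35 (without WT replicate 2) when single libraries were left out, with 32 without Rest_het replicate 3. With the replicate number as a block, 6 genes were called, 0 of them channel genes. Of 22 channel genes with full statistics, 16 kept their sign in every alternative run, 14 for each gene but Kcnd1 and Kcnf1, which had 13. The sign turned in 6, all within 1 SE of 0, and the cause was not tested. Leaving out single libraries gave log2 fold changes from -0.11 to 0.19 for Kcnab2, -0.65 to 0.14 for Kcnh5, -0.13 to 0.31 for Kcnj8, -0.080 to 0.085 for Kcnk10 (-3.9e-05 with upper-quartile factors), -0.34 to 0.035 for Kcnt2 and -0.0049 to 0.13 for Kcnv1. The 41 genes left untested by edgeR's filter had few reads; with no filter, 85 of the 92 were tested and 0 were called.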
